A study of Mus musculus with 16 samples.

Results

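The genes examined were 9 loci linked to plasma cell differentiation: Prdm1, Irf4, Xbp1, Zbtb20, Ell2, Jchain, Mzb1, Slamf7 and Cd93. Their members were the ATAC-seq peaks whose middle lay nearest to the RefSeq span of 1 of these protein-coding genes, at most 50 kb away. This gave 136 of the 82188 peaks of the series. Zbtb20 held 56 of them, Ell2 17, Prdm1 13, Irf4 12, Xbp1 and Slamf7 10 each, Cd93 9, Jchain 6 and Mzb1 3. A peak near a gene shows open chromatin, not transcription, and may act on another gene.

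Chromatin accessibility had been measured by Omni-ATAC, in which a transposase cuts open DNA and tags it for sequencing. There were 16 libraries from spleens of C57BL/6 mice aged 8 to 10 weeks, 4 in each of 4 groups: Smarca4+/- cells labelled CC (HET CC), Smarca4+/+ cells labelled CC (WT CC), Smarca4+/- cells labelled CB (HET CB) and Smarca4+/+ cells labelled CB (WT CB). The labels do not spell out CC and CB, which are read here as centrocytes and centroblasts, and they name no sort gate, no immunization and no Cre or promoter behind the Smarca4 allele. BRG1, the product of Smarca4, is the motor subunit of BAF complexes that shift nucleosomes, and the series asks how the loss of 1 copy bears on the fate of centrocytes. Library totals were 5310327 to 7474760 counts in HET CC, 3494356 to 3750936 in WT CC, 38716281 to 51011923 in HET CB and 31696941 to 38798802 in WT CB. Every CC library was thus much shallower than every CB library, and pairwise Pearson correlations of replicates were 0.911 to 0.937 in HET CC, 0.884 to 0.891 in WT CC, 0.987 to 0.991 in HET CB and 0.984 to 0.989 in WT CB. Summed over 9 peaks, the Smarca4 locus held 140 to 165 CPM (counts scaled to a common library total) in HET CC, 153 to 185 in WT CC, 175 to 180 in HET CB and 183 to 196 in WT CB. Its difference between genotypes did not pass the test in CC (log2 -0.09, adjusted p = 0.375) or in CB (log2 -0.10, adjusted p = 0.413), and these peaks are no check of the genotype, since the extent of the lost sequence is not in the labels. The 6 markers of B cells all had peaks, with 647 to 717 summed CPM in HET CC, 650 to 781 in WT CC, 780 to 787 in HET CB and 811 to 845 in WT CB.

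In a germinal center, dividing centroblasts of the dark zone give rise to centrocytes of the light zone, where cells are selected to cycle again, to become memory B cells or to become plasma cells. Plasma cell fate is set by IRF4 and by BLIMP1, the product of Prdm1, which silences the B cell program, while XBP1 builds the secretory apparatus. ELL2 steers immunoglobulin transcripts toward the secreted form, and the J chain and MZB1 serve the assembly of secreted antibody.

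The promoter windows of 5 members are printed because each overlaps a start site peak described below and holds a motif match. Each runs from 250 bases before to 50 bases after the start site that RefSeq lists in GRCm38.p6, the assembly that mm10 denotes, 5′ to 3′ on the strand of the gene. Capitals mark matches to 5 short motifs searched on both strands. Prdm1 is at chr10:44458699-44458998 on the minus strand, Irf4 at chr13:30748983-30749282 on the plus strand, Jchain at chr5:88527848-88528147 on the minus strand, Slamf7 at chr1:171648950-171649249 on the minus strand and Ell2 at chr13:75707234-75707533 on the plus strand.
Prdm1: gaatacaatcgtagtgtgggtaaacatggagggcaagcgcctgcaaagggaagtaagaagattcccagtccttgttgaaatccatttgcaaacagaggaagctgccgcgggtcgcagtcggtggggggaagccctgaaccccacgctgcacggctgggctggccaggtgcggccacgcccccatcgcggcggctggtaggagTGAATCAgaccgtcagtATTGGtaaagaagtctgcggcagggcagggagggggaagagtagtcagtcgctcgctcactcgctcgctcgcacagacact
Irf4: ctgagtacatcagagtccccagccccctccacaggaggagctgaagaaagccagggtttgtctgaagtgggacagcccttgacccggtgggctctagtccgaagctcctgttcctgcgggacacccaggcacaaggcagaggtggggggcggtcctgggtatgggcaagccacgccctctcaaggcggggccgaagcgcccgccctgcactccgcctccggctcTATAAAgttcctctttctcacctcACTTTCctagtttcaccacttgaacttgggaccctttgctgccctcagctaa
Jchain: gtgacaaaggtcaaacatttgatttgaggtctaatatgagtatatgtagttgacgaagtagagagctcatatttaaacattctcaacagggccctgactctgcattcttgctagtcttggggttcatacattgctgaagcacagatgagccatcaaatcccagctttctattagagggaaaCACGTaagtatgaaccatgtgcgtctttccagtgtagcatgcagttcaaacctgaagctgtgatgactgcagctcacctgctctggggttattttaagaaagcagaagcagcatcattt
Slamf7: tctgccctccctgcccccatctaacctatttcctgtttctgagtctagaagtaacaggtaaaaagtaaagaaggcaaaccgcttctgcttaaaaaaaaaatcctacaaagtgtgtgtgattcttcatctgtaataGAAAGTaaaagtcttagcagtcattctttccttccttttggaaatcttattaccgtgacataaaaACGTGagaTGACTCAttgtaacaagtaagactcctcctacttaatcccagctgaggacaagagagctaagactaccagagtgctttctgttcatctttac
Ell2: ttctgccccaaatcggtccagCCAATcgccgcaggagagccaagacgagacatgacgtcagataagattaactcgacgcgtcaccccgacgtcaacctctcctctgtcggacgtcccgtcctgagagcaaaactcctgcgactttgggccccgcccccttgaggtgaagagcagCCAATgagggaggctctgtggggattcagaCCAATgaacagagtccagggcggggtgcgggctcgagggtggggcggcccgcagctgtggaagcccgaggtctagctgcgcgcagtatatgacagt

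The motifs were the TATA box TATAAA, found in 13.6% of the 32851 RefSeq windows, the CCAAT box CCAAT in 37.4%, the AP-1 motif TGANTCA in 7.8%, the ACGTG core, which XBP1 and bZIP sites share, in 19.6%, and GAAAGT, the core of IRF and BLIMP1 sites, in 14.3%. None of the matches overlapped in these 5 windows. The Prdm1 window held an AP-1 match 48 bases before the start and a CCAAT match 31 bases before it. The Irf4 window held a TATAAA match 26 bases before the start and a GAAAGT match 2 bases before it. In the Jchain window, ACGTG lay 69 bases before the start. The Slamf7 window held GAAAGT at 115, ACGTG at 50 and AP-1 at 42 bases before the start, and Ell2 held CCAAT at 229, 76 and 46 bases before it. A sixth motif, ATGCAAA, part of the octamer, stood in 4.6% of all windows and in none of the 7 member windows. The Xbp1 window also overlaps a start site peak, but it held none of these motifs and is not printed. A match is a description of the letters only.

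Between CC and CB, most member peaks changed, and more of them closed than opened. In WT, 33 of 136 peaks were higher in CC (24.3%) and 68 were lower, against a background over all peaks of 30.2% higher and 27.7% lower. In HET, 34 were higher (25.0%) and 66 lower (48.5%), against 30.8% and 28.1% of all peaks. The median log2 fold change of the members was -0.33 in HET and -0.43 in WT, and that of all peaks was 0.00 in HET and -0.01 in WT. Of the members, 29 were called higher and 62 lower in both genotypes, and none was called in opposite directions. The same counts were not made over all peaks, of which 58.8% were called in HET and 57.9% in WT. Zbtb20 supplied 32 of the lower calls in each genotype. Without it, 23 of 80 peaks were higher and 34 lower in HET, and 20 were higher and 36 lower in WT. The 2 comparisons share no library, but both set shallow CC libraries against deep CB libraries. Where the share of cells with open chromatin and the openness per cell both can vary, bulk libraries cannot tell them apart.

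The level of a peak went with its direction. Among peaks below 2 CPM in WT CB, 79.4% of all 12481 peaks were higher in WT CC and 1.17% were lower, and all 14 such member peaks were higher. Among peaks of 20 CPM or more, 21.2% of 33 member peaks were higher and 66.7% lower, against 31.8% and 33.7% of all 16600 such peaks. Between these levels, 13.5% of 89 member peaks were higher and 51.7% lower, against 18.2% and 32% of all 53107. The level and the fold change share the WT CB libraries, and the part of level and depth in the gains of weak peaks was not tested.

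**Figure D1:**
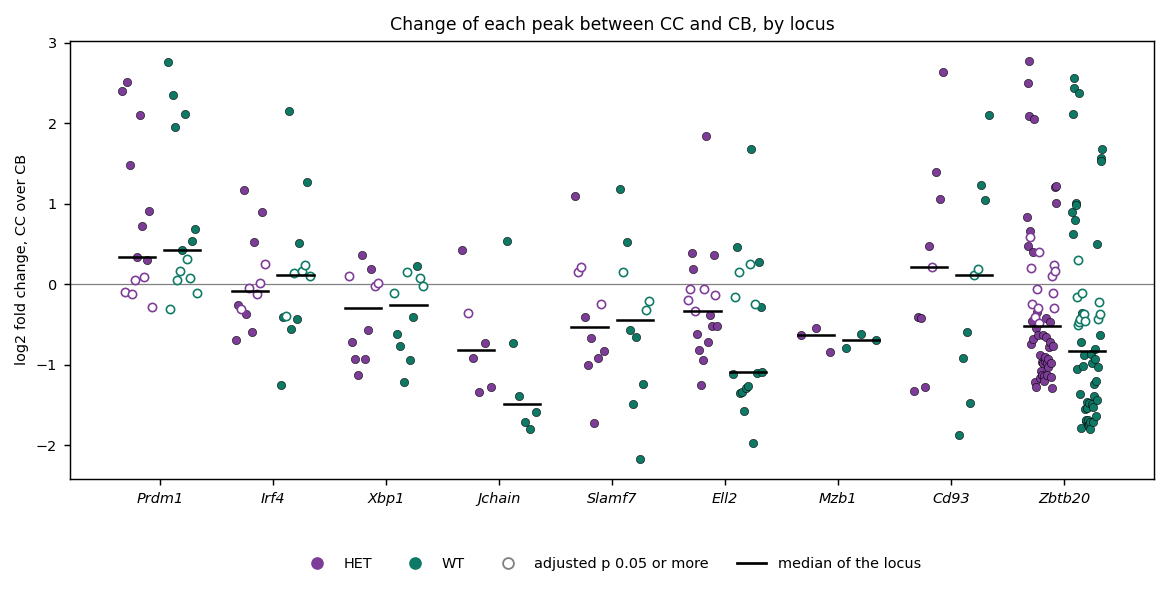
Log2 fold change of CC over CB for each of the 136 peaks (vertical axis), by locus (horizontal axis), in HET (purple) and WT (green); filled points passed the test, open points did not, and bars are medians of a locus. Prdm1 had no called peak below 0 in either genotype, while all 3 Mzb1 peaks and most Jchain, Ell2 and Zbtb20 peaks lay below 0.

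Summing the counts of a locus gave 1 value per library. The summed Prdm1 locus was higher in CC, and the other 8 loci were lower in CC in WT, where all 9 passed the test. In HET the same held for Prdm1 and for 7 of the other 8, while Ell2 did not pass. Over all 15075 loci with a peak, 31.6% were higher and 31.7% lower in WT CC, and 31.1% were higher and 31.7% lower in HET CC. Jchain showed the largest fall among the 9, with log2 -0.92 in HET (SE 0.073, adjusted p = 1.15e-13) and -1.33 in WT (SE 0.087, adjusted p = 5.55e-16). Slamf7 followed with -0.71 in HET and -0.83 in WT, then Mzb1 with -0.68 and -0.73. Smaller falls were found for Zbtb20 (-0.27 in HET, -0.41 in WT), Cd93 (-0.16 in HET, -0.36 in WT), Xbp1 (-0.26 in HET, -0.29 in WT) and Irf4 (-0.19 in HET, -0.13 in WT). The Irf4 call in WT (adjusted p = 0.0258) was lost under total count scaling (-0.11, adjusted p = 0.0599) and without any of WT CC replicates 1, 2 and 3 or WT CB replicates 1 and 3 (adjusted p 0.0507 to 0.0915). A sum can hide peaks that move in opposite directions, and at several loci it did.

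**Figure D2:**
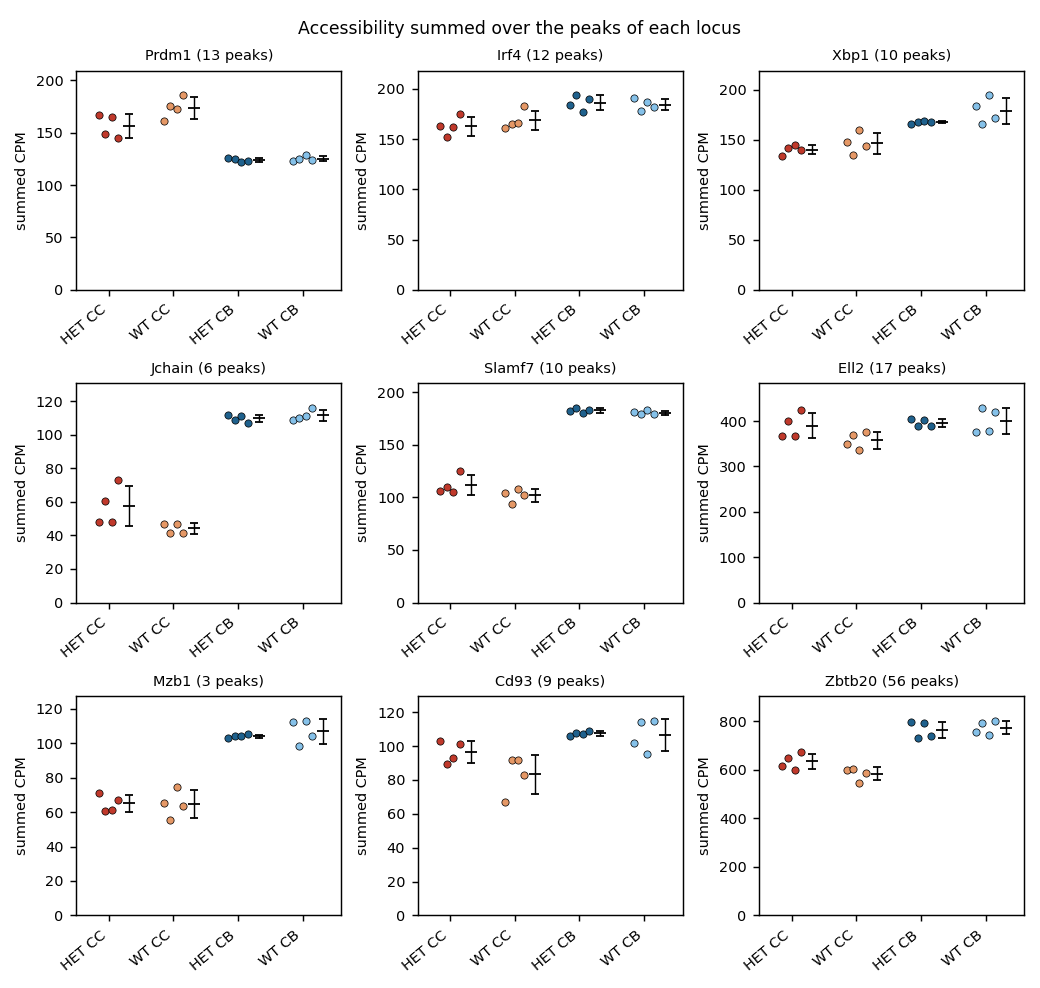
Summed CPM over the peaks of each locus (vertical axes from 0) in the 16 libraries by group; points are libraries, and bars beside them are the mean and SD of 4. Prdm1 averaged 157 CPM in HET CC and 174 in WT CC, above 124 in HET CB and 125 in WT CB, while Jchain averaged 57.4 in HET CC and 44.3 in WT CC, below 110 and 111.

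Prdm1 encodes BLIMP1, the repressor that ends the B cell program. It was the 1 locus of the 9 with no peak called lower in CC in either genotype. In HET, 8 of its 13 peaks were higher in CC, and in WT 7 were. The summed locus held 167, 149, 165 and 145 CPM in HET CC and 161, 175, 173 and 186 in WT CC, against 126, 125, 122 and 123 in HET CB and 123, 125, 129 and 124 in WT CB. The CC and CB libraries did not overlap in either genotype, and the log2 fold change was 0.34 in HET (SE 0.0482, adjusted p = 1.61e-07) and 0.47 in WT (SE 0.0515, adjusted p = 3.58e-10).

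The start site peak of Prdm1, at chr10:44458383-44458883, overlaps the window printed above. It held 43.7, 41.4, 35.9 and 36.5 CPM in HET CC and 37.0, 40.6, 45.4 and 41.0 in WT CC, against 34.1, 31.1, 29.8 and 29.4 in HET CB and 29.4, 30.9, 32.2 and 29.1 in WT CB. The groups were again separate, by a log2 fold change of 0.34 in HET (adjusted p = 0.000119) and 0.43 in WT (adjusted p = 3.16e-05). The strongest Prdm1 peak, at chr10:44529269-44529769, lies 1.0 kb beyond the far upstream end of the gene span. It averaged 42.1 ± 2.46 CPM in HET CC and 47.9 ± 3.54 in WT CC, and 33.9 ± 1.29 in HET CB and 33.0 ± 1.08 in WT CB (SD, n = 4 each). Its log2 fold change of CC over CB was 0.31 in HET (adjusted p = 0.000149) and 0.54 in WT (adjusted p = 4.65e-08).

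The largest Prdm1 gain in WT was at a weak peak 29.1 kb downstream of the start, at chr10:44429417-44429917. It held 4.30, 2.51, 3.02 and 2.79 CPM in HET CC and 1.95, 6.77, 7.61 and 8.76 in WT CC, against 0.947, 0.400, 0.353 and 0.681 in HET CB and 0.898, 0.910, 0.914 and 0.970 in WT CB. Every CC library was above every CB library, and the log2 fold change was 2.40 in HET (SE 0.35) and 2.76 in WT (SE 0.337). These values rest on 16 to 25 counts per HET CC library and 7 to 32 per WT CC library. The HET and WT CC libraries overlapped here, and their difference of log2 -1.0 did not pass (adjusted p = 0.11). WT CC replicate 1 decided that, since without it the difference was -1.30 (adjusted p = 0.034).

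Irf4 encodes a factor that acts at high level in plasma cells. Its start site peak, at chr13:30748921-30749421, was the strongest of the locus and overlapped between all groups. It held 40.2, 36.4, 37.4 and 34.5 CPM in HET CC and 36.4, 45.0, 42.8 and 42.4 in WT CC, against 37.3, 39.6, 37.3 and 38.1 in HET CB and 37.7, 36.1, 38.3 and 38.6 in WT CB. The groups overlapped, and neither the log2 fold change of -0.04 in HET (SE 0.0717, adjusted p = 0.653) nor that of 0.14 in WT (SE 0.0807, adjusted p = 0.122) passed, although the WT value became 0.21 (adjusted p = 0.0354) without WT CC replicate 1. Of the 12 Irf4 peaks, 3 were higher and 4 lower in CC in each genotype.

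The largest Irf4 loss was 19.0 kb upstream, at chr13:30730008-30730508. It held 15.7, 14.1, 14.0 and 24.4 CPM in HET CC and 6.95, 13.8, 7.89 and 14.8 in WT CC, against 27.7, 29.3, 27.3 and 25.8 in HET CB and 26.2, 24.4, 26.7 and 25.4 in WT CB. All CC libraries were lower than the CB libraries of their genotype, with log2 -0.69 in HET (adjusted p = 8.56e-07) and -1.25 in WT (adjusted p = 5.40e-10). The largest gain was at a faint peak 6.5 kb upstream, with 0.931 to 2.11 CPM in HET CC, 0.834 to 5.30 in WT CC, 0.506 to 0.927 in HET CB and 0.333 to 1.07 in WT CB. Its log2 fold change was 1.17 in HET and 2.15 in WT, the HET call was lost without HET CC replicate 2 (0.99, adjusted p = 0.0806), and the counts were 6 to 16 and 3 to 18 per CC library.

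Xbp1 encodes the factor that expands the endoplasmic reticulum. In HET CC, 2 of its 10 peaks rose and 5 fell, and in WT CC 1 rose and 5 fell. The start site peak, at chr11:5520642-5521142, held 39.7, 40.2, 51.3 and 38.3 CPM in HET CC and 40.3, 41.5, 48.5 and 44.6 in WT CC, against 36.2, 38.4, 36.8 and 36.5 in HET CB and 35.9, 36.7, 39.5 and 36.6 in WT CB. It was slightly higher in CC, by log2 0.19 in HET (adjusted p = 0.0252) and 0.23 in WT (adjusted p = 0.0156). In HET the CC and CB libraries overlapped. Without replicate 3 of the CC group both calls were lost, at 0.09 in HET (adjusted p = 0.32) and 0.18 in WT (adjusted p = 0.0907). Both were also lost in limma voom with quantile normalization (0.15 in HET, adjusted p = 0.144, and 0.10 in WT, adjusted p = 0.528). The HET call was also lost without HET CB replicate 1 (0.18, adjusted p = 0.0518) or HET CB replicate 4 (0.18, adjusted p = 0.0514). The largest loss was 19.6 kb upstream, where the peak averaged 6.05 ± 2.81 CPM in HET CC and 6.25 ± 1.23 in WT CC, and 13.6 ± 1.14 in HET CB and 14.5 ± 0.822 in WT CB. The log2 fold change there was -1.12 in HET (adjusted p = 3.65e-08) and -1.21 in WT (adjusted p = 4.34e-07).

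**Figure D3:**
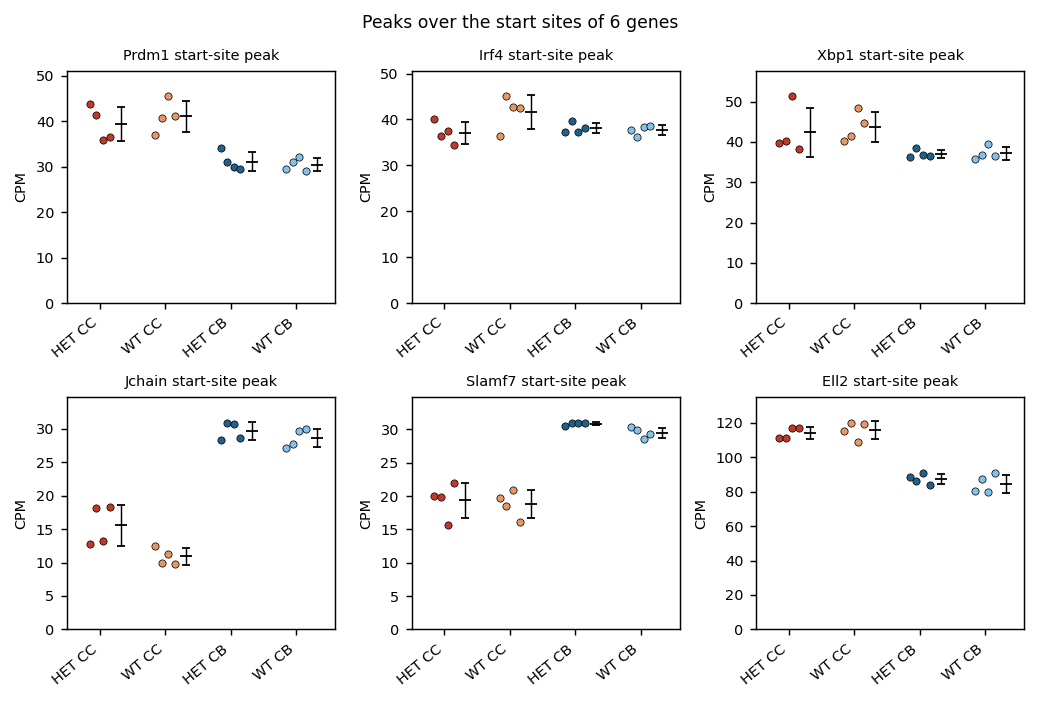
CPM of the peaks over the listed start sites of 6 genes (vertical axes from 0) in the 16 libraries by group; points are libraries and bars the mean and SD of 4. The Jchain and Slamf7 start peaks were lower in CC in both genotypes, the Prdm1, Ell2 and Xbp1 peaks were higher, and the Irf4 peak did not pass. Under quantile normalization the Ell2 peak lay lower in CC and the Xbp1 peak was not called.

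Zbtb20 encodes a BTB zinc finger repressor, related to BCL6, that promotes long-lived plasma cells. Its 56 peaks were spread over a span of chr16:42875689-43634392, and their direction differed with their place in it, as did their level. The 6 peaks within 40 kb of the 5′ end of the span were all higher in CC in both genotypes, with a median log2 fold change of 1.46 in HET and 1.51 in WT. Between 400 and 720 kb lay 45 peaks, of which 32 were lower in CC in each genotype and 2 higher, with a median of -0.71 in HET and -1.02 in WT. The 3 peaks beyond 720 kb were higher again in both genotypes, with medians of 1.21 in HET and 1.57 in WT. The 2 peaks between 40 and 400 kb were called higher in WT and not in HET. These limits were chosen after the values had been seen, so the segments are a description. In the order along the span, the median WT CB levels of the 4 segments were 2.51, 1.60, 11.9 and 1.29 CPM. Of all peaks below 2 CPM in WT CB, 79.4% were higher in WT CC, against 18.2% from 2 to 20 CPM and 31.8% at 20 CPM or more. The peaks at the 5′ end spanned these levels, from 1.01 to 93.1 CPM in WT CB. The parts of place and level were not tested apart.

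The strongest Zbtb20 peak, at chr16:42875259-42875759, lies at the 5′ end of the span. It held 155, 160, 168 and 167 CPM in HET CC and 169, 173, 162 and 190 in WT CC, against 92.0, 91.5, 93.5 and 85.8 in HET CB and 91.5, 96.5, 88.7 and 95.8 in WT CB. No CC library came near a CB library, and the log2 fold change was 0.84 in HET (SE 0.0507, adjusted p = 1.33e-20) and 0.90 in WT (SE 0.0537, adjusted p = 1.25e-20). The peak also overlaps the promoter window of another RefSeq entry. A peak 31.8 kb into the span, at chr16:42907289-42907789, gained the most, with 16.3, 13.9, 13.4 and 7.76 CPM in HET CC and 20.3, 17.4, 11.6 and 15.3 in WT CC, against 1.95, 1.94, 1.83 and 1.73 in HET CB and 2.38, 3.01, 2.64 and 2.94 in WT CB. Its log2 fold change was 2.78 in HET (SE 0.184) and 2.56 in WT (SE 0.193).

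The start that RefSeq lists for Zbtb20 is far inside the span, and no peak overlapped its window. The nearest peak, 27.7 kb before that start, was faint, with 1.24 to 2.45 CPM in HET CC, 0 to 5.36 in WT CC, 1.42 to 2.21 in HET CB and 0.914 to 1.69 in WT CB. Its WT call (log2 0.99, adjusted p = 0.0326) was lost without WT CC replicate 3 (0.33, adjusted p = 0.592). It was also lost without WT CC replicate 4, WT CB replicate 1 or WT CB replicate 3, with the replicate block and in a fit of the WT libraries alone (adjusted p 0.0521 to 0.0766). The largest loss in WT was 244.3 kb after that start, where the peak averaged 3.71 ± 0.76 CPM in HET CC and 2.33 ± 1.15 in WT CC, and 7.02 ± 0.467 in HET CB and 8.07 ± 0.802 in WT CB. Its log2 fold change was -0.90 in HET (adjusted p = 4.20e-05) and -1.79 in WT (adjusted p = 2.08e-08).

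**Figure D4:**
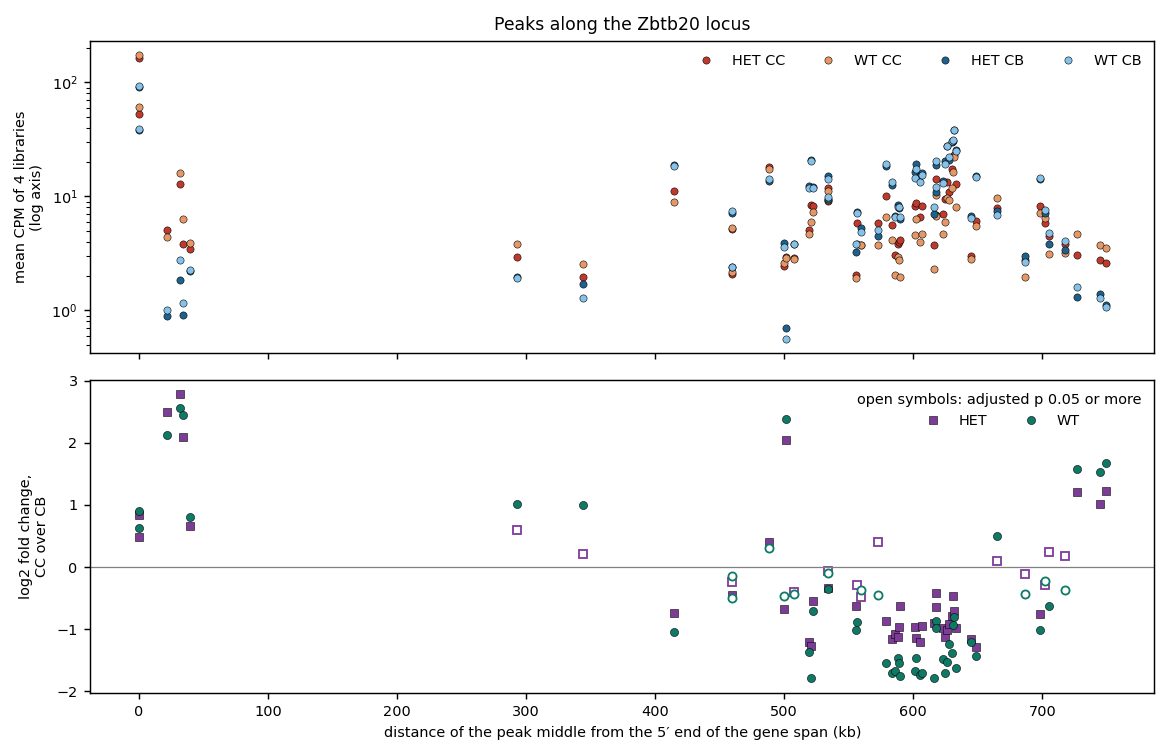
Mean CPM per group on a log axis (top) and log2 fold change of CC over CB in HET and WT (bottom) for 56 peaks, by distance from the 5′ end of the Zbtb20 span; open symbols did not pass the test. Peaks at both ends lay above 0 and most of the 45 peaks between 400 and 720 kb lay below 0.

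Ell2, an elongation factor, had a strong start site peak that rose in CC and a set of intronic and downstream peaks that fell. The start site peak, at chr13:75707206-75707706, held 111, 111, 117 and 117 CPM in HET CC and 115, 120, 109 and 119 in WT CC, against 88.5, 85.9, 90.6 and 84.1 in HET CB and 80.3, 87.2, 79.7 and 90.6 in WT CB. The groups were separate, with log2 0.39 in HET (adjusted p = 1.15e-08) and 0.46 in WT (adjusted p = 1.25e-09), but quantile normalization turned both values negative (-0.09 in HET and -0.17 in WT). In HET CC, 4 of the 17 peaks rose and 8 fell, and in WT CC 3 rose and 10 fell. The opposite moves left the summed locus at 390 ± 27.5 CPM in HET CC and 357 ± 18.0 in WT CC, and 396 ± 8.82 in HET CB and 400 ± 27.8 in WT CB. The sum did not pass in HET (log2 -0.02, SE 0.0459, adjusted p = 0.733) and was lower in WT (-0.16, SE 0.0484, adjusted p = 0.0036), and the difference between these effects did not pass (0.14, adjusted p = 0.344).

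The largest Ell2 loss in WT was 80.1 kb downstream of the start, at chr13:75787354-75787854. It held 4.64, 6.20, 3.40 and 7.14 CPM in HET CC and 1.67, 3.24, 1.97 and 2.74 in WT CC, against 8.60, 8.93, 9.77 and 8.81 in HET CB and 7.71, 9.94, 8.51 and 11.4 in WT CB. The log2 fold change was -0.72 in HET (adjusted p = 0.000275) and -1.97 in WT (adjusted p = 2.63e-09). A faint peak 45.2 kb downstream rose the most, to 1.51 to 3.96 CPM in HET CC and 1.77 to 4.38 in WT CC, against 0.681 to 0.883 in HET CB and 0.555 to 1.19 in WT CB, with log2 1.85 in HET and 1.68 in WT.

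Jchain encodes the chain that joins IgM and IgA into polymers, and its accessibility was lower in CC at 4 of 6 peaks in HET and 5 of 6 in WT. The start site peak, at chr5:88527609-88528109, held 12.7, 18.1, 13.2 and 18.3 CPM in HET CC and 12.5, 10.0, 11.3 and 9.85 in WT CC, against 28.3, 30.9, 30.7 and 28.6 in HET CB and 27.2, 27.7, 29.6 and 29.9 in WT CB. No CC library reached a CB library, and the log2 fold change was -0.91 in HET (SE 0.0992, adjusted p = 1.80e-11) and -1.39 in WT (SE 0.129, adjusted p = 1.17e-13). The largest loss in WT was 5.9 kb upstream, at chr5:88533548-88534048, with 6.71, 7.65, 7.74 and 12.7 CPM in HET CC and 2.78, 5.59, 5.64 and 3.28 in WT CC, against 15.3, 14.3, 14.1 and 14.3 in HET CB and 16, 15, 14.8 and 14.3 in WT CB. The groups did not overlap, with log2 -0.73 in HET and -1.80 in WT. The 1 higher peak of the locus, 0.4 kb beyond the 3′ end, stood at log2 0.43 in HET (adjusted p = 0.0237) and 0.54 in WT (adjusted p = 0.0106). Leaving out WT CC replicate 3 ended the WT call (0.44, adjusted p = 0.0727), and the HET call was lost without HET CC replicate 2 (0.33, adjusted p = 0.131), HET CB replicate 2 (0.38, adjusted p = 0.0622) or HET CB replicate 4 (0.38, adjusted p = 0.0675). The HET call was also lost with the replicate block (adjusted p = 0.0588), quantile normalization (adjusted p = 0.0573) and thinning (adjusted p = 0.418).

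Mzb1 encodes an endoplasmic reticulum chaperone of antibody assembly. All 3 of its peaks, each within the gene span, were lower in CC in both genotypes. The strongest, at chr18:35648267-35648767, held 37.7, 31.9, 31.3 and 30.0 CPM in HET CC and 30.0, 25.6, 37.2 and 33.9 in WT CC, against 47.1, 46.8, 48.1 and 47.9 in HET CB and 50, 45.7, 49.8 and 48.8 in WT CB. CC and CB were separate and the genotypes overlapped, with log2 -0.54 in HET (adjusted p = 1.61e-08) and -0.61 in WT (adjusted p = 2.66e-08). The peak with the largest fall in WT averaged 10.2 ± 2.11 CPM in HET CC and 9.29 ± 1.75 in WT CC, and 15.8 ± 0.638 in HET CB and 16.1 ± 2.02 in WT CB, with log2 -0.63 in HET and -0.79 in WT.

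Slamf7 encodes a surface receptor carried by plasma cells. Its start site peak, at chr1:171648747-171649247, held 20, 19.9, 15.7 and 21.9 CPM in HET CC and 19.7, 18.5, 20.9 and 16.1 in WT CC, against 30.5, 30.9, 31.0 and 30.9 in HET CB and 30.3, 29.9, 28.6 and 29.3 in WT CB. CC was lower than CB in every library, by log2 -0.66 in HET (adjusted p = 6.08e-09) and -0.65 in WT (adjusted p = 5.57e-07), and the genotypes overlapped in CC. The largest loss was at the upstream end of the span, 3.9 kb before the start, with 4.82, 6.46, 5.29 and 7.76 CPM in HET CC and 2.50, 2.94, 4.51 and 8.21 in WT CC, against 20.2, 20.6, 20 and 20.1 in HET CB and 19.9, 22.5, 20.1 and 19.8 in WT CB. The log2 fold change was -1.72 in HET (SE 0.142) and -2.17 in WT (SE 0.185). In the other direction, a peak 19.6 kb downstream of the start was higher in CC, with log2 1.10 in HET (adjusted p = 7.79e-06) and 1.19 in WT (adjusted p = 2.02e-05). Of the 10 peaks, 1 was higher and 6 lower in HET CC, and 2 were higher and 5 lower in WT CC.

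Cd93 encodes a surface glycoprotein that long-lived plasma cells and endothelial cells carry. In HET CC, 4 of its 9 peaks rose and 4 fell, and in WT CC 3 rose and 4 fell. The strongest peak, at chr2:148425641-148426141 and 10.8 kb from the gene, held 28.2, 24.9, 30.6 and 32.6 CPM in HET CC and 26.4, 27.1, 27.3 and 21.3 in WT CC, against 38.2, 39.1, 38.9 and 38.6 in HET CB and 38.6, 40.2, 33.7 and 41.4 in WT CB. CC was lower than CB throughout, by log2 -0.42 in HET (adjusted p = 1.56e-05) and -0.59 in WT (adjusted p = 7.83e-07). The peak nearest a gene end, within the gene, overlapped between CC and CB, with log2 0.22 in HET (adjusted p = 0.0943) and 0.19 in WT (adjusted p = 0.249). This peak passed in HET without HET CB replicate 4 (0.30, adjusted p = 0.0348) and in WT without WT CC replicate 1 (0.35, adjusted p = 0.0387). In HET it also passed in limma voom with quantile normalization (0.42, adjusted p = 0.00923). The other peak within the gene also overlapped between CC and CB. It was called higher in HET CC (0.48, adjusted p = 0.0177) and not called in WT (0.12, adjusted p = 0.659).

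The outermost Cd93 peaks moved the most. A peak 13.1 kb from the gene fell by a log2 fold change of -1.32 in HET and -1.87 in WT. A weak peak 48.9 kb away, at chr2:148492149-148492649, held 7.57, 6.86, 6.04 and 6.67 CPM in HET CC and 3.33, 6.18, 7.61 and 5.47 in WT CC, against 1.02, 1.05, 1.21 and 1.05 in HET CB and 1.11, 1.16, 0.965 and 2.02 in WT CB. Its log2 fold change was 2.64 in HET (SE 0.247) and 2.10 in WT (SE 0.287). The summed locus, log2 -0.16 in HET (adjusted p = 0.0338), lost its call under total count scaling (-0.12, adjusted p = 0.0985) and without any of HET CB replicates 2, 3 and 4 or HET CC replicates 2 and 3. Of the 7 endothelial markers with a peak, 3 were higher in CC in each genotype. Their sum was 307 to 341 CPM in HET CC, 338 to 370 in WT CC, 257 to 273 in HET CB and 269 to 282 in WT CB, and their part in the Cd93 values was not tested.

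Of the 9 member peaks that overlapped a RefSeq promoter window, 5 were higher and 2 lower in WT CC, and 42.2% of all 10649 promoter peaks were higher and 17.9% lower. The 9 include an Xbp1 peak 35.2 kb upstream and 2 Zbtb20 peaks at the 5′ end of its span. Those lie in windows of other RefSeq entries, and both Zbtb20 peaks were called higher in each genotype. Of the 127 member peaks outside such windows, 28 were higher and 66 lower (52.0%), and of all 71539 such peaks 28.5% were higher and 29.1% lower. In HET the member counts were 5 higher and 2 lower in windows, where 36.4% of all such peaks were higher and 22.3% lower. Outside they were 29 higher and 64 lower, against 30.0% and 28.9% of all such peaks.

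Markers of other cells also differed between CC and CB. Over all loci, 31.7% were lower in CC in each genotype, and 31.1% were higher in HET and 31.6% in WT. All 6 germinal center B cell markers, a list that includes S1pr2, were lower in CC in both genotypes. Of the 9 T cell markers with a peak, 7 were higher in CC in both genotypes, with 1 lower in HET and 2 lower in WT, and of 6 NK cell markers 5 were higher in HET and 4 in WT. The T cell sum was 389 to 451 CPM in HET CC, 447 to 557 in WT CC, 284 to 294 in HET CB and 298 to 305 in WT CB, and the NK cell sum was 228 to 236, 236 to 285, 182 to 191 and 181 to 193 in the same order of groups. Of 5 myeloid markers with a peak, 4 were higher in each genotype and 1 was lower in WT, with sums of 189 to 222 CPM in HET CC, 211 to 221 in WT CC, 111 to 119 in HET CB and 123 to 132 in WT CB. Of the B cell markers, 4 of 6 were lower in each genotype. Markers of plasma cells summed to 163 to 189 CPM in HET CC, 180 to 185 in WT CC, 174 to 180 in HET CB and 174 to 178 in WT CB. No marker with a peak was at 0 in all libraries, while Lck, Lyz2, S100a8, Elane, Tek and Cd28 had no assigned peak. The part of other cells in the member changes was not tested.

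Within CB, no member peak was called between the genotypes. None of the 136 peaks passed between HET CB and WT CB in edgeR, where 0.129% of all peaks did. At an unadjusted p below 0.05 there were 8 (5.88%), against 7.90% of all peaks. DESeq2 also called 0 of them and limma voom with quantile normalization called 1. Over all peaks, DESeq2 called 119 higher and 528 lower, and voom called 1167 higher and 1303 lower. The edgeR log2 fold changes of the members ran from -0.64 to 0.41, with a median of -0.02. None of the 9 summed loci passed, where 0.551% of all loci did, and 1 of them had an unadjusted p below 0.05.

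In CC, 10 of the 136 peaks differed between the genotypes, and all 10 were higher in HET. They were 7.35% of the members, while 1.08% of all peaks were higher and 0.979% lower. They comprised 4 peaks of Ell2, 3 of Zbtb20 and 1 each of Irf4, Jchain and Slamf7, with none in a promoter window. Their log2 fold changes of HET over WT ran from 0.55 to 1.19 and their adjusted p from 0.00887 to 0.0495. In 7 of the 10, the HET CC and WT CC libraries did not overlap. The 10 were called on these same libraries, so the separation is no added support. Some peaks that were not called, such as the Jchain start site peak, did not overlap either. Separation was not counted over all peaks. This comparison shares the WT CC libraries with CC against CB in WT, where all 10 peaks were lower in CC. In HET, 9 of the 10 were called lower in CC, and in all 10 the HET CC mean lay between the WT CC mean and both CB means. Part of this order follows from how the 10 were picked, and it was not counted over all peaks.

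The Ell2 peak 10.6 kb into the gene had the lowest adjusted p of the 10. At chr13:75717861-75718361 it held 17, 26.5, 15.3 and 25.5 CPM in HET CC and 13.3, 11.2, 12.1 and 15 in WT CC, against 32.8, 34.9, 33.0 and 31.1 in HET CB and 30.3, 35.0, 30.7 and 34.3 in WT CB. Every HET CC library was above every WT CC library, with the 2 lower ones just above it, and log2 was 0.73 (SE 0.157, adjusted p = 0.00887). The Ell2 peak 80.1 kb downstream, with the values given above, had the largest difference, log2 1.19 (SE 0.312, adjusted p = 0.0314). The other called Ell2 peaks, 9.8 and 83.5 kb downstream, had log2 1.02 (adjusted p = 0.0495) and 0.67 (adjusted p = 0.0283), and their HET CC and WT CC libraries overlapped.

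At Jchain, the peak 5.9 kb upstream was higher in HET CC by log2 1.02 (SE 0.24, adjusted p = 0.0154), without overlap, on 39 to 82 counts per HET CC library and 10 to 20 per WT CC library. The start site peak did not overlap either, but its difference of 0.53 did not pass (SE 0.157, adjusted p = 0.0539). It passed with total count scaling (0.57, adjusted p = 0.0399) and in DESeq2 (0.52, adjusted p = 0.0159). It also passed without HET CC replicate 1 (0.62, adjusted p = 0.0193) or HET CC replicate 3 (0.60, adjusted p = 0.0242). Summed over 6 peaks, Jchain was the 1 locus of the 9 that passed, where 6.66% of all loci did. It held 48.0, 60.7, 47.9 and 73.0 CPM in HET CC and 47.0, 41.3, 47.0 and 41.7 in WT CC, with log2 0.39 (SE 0.101, adjusted p = 0.0184). HET CC replicates 1 and 3 lay within 1.0 CPM of the highest WT CC library, and replicates 2 and 4 lay well above it. The call was lost without HET CC replicate 4 (0.25, adjusted p = 0.122), HET CC replicate 2 (0.36, adjusted p = 0.0693), WT CC replicate 2 (0.36, adjusted p = 0.0633) or WT CC replicate 4 (0.36, adjusted p = 0.0545). The Prdm1 sum was on the other side, at log2 -0.16 (SE 0.055, adjusted p = 0.0812), and it passed without HET CC replicate 1 (-0.19, adjusted p = 0.0349), HET CC replicate 3 (-0.18, adjusted p = 0.04) or WT CC replicate 1 (-0.19, adjusted p = 0.046). The Zbtb20 sum, at log2 0.12 (adjusted p = 0.0747), passed without HET CC replicate 3 (0.15, adjusted p = 0.029) and with total count scaling (0.14, adjusted p = 0.0403).

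The Slamf7 peak 1.0 kb into the gene, at chr1:171647710-171648210, held 15.8, 20.4, 16 and 23.1 CPM in HET CC and 8.89, 15.6, 12.4 and 15.3 in WT CC, against 38.5, 39.7, 37.4 and 36.9 in HET CB and 34.6, 36.4, 36.9 and 38.6 in WT CB. The lowest HET CC library was just above the highest WT CC library, with log2 0.55 (SE 0.149, adjusted p = 0.0365). The Irf4 peak 19.0 kb upstream had log2 0.65 (SE 0.181, adjusted p = 0.0405) with overlapping libraries, and HET CC replicate 4 lay well above the other HET CC libraries there. The 3 Zbtb20 peaks lie 229.9, 234.9 and 261.2 kb after the listed start, among the peaks that were lower in CC. The one at 229.9 kb held 8.77, 7.65, 7.55 and 9.0 CPM in HET CC and 4.45, 2.94, 5.07 and 5.75 in WT CC, and all 3 were without overlap, with log2 0.85, 0.80 and 0.69 and adjusted p of 0.0293, 0.0428 and 0.0243.

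**Figure D5:**
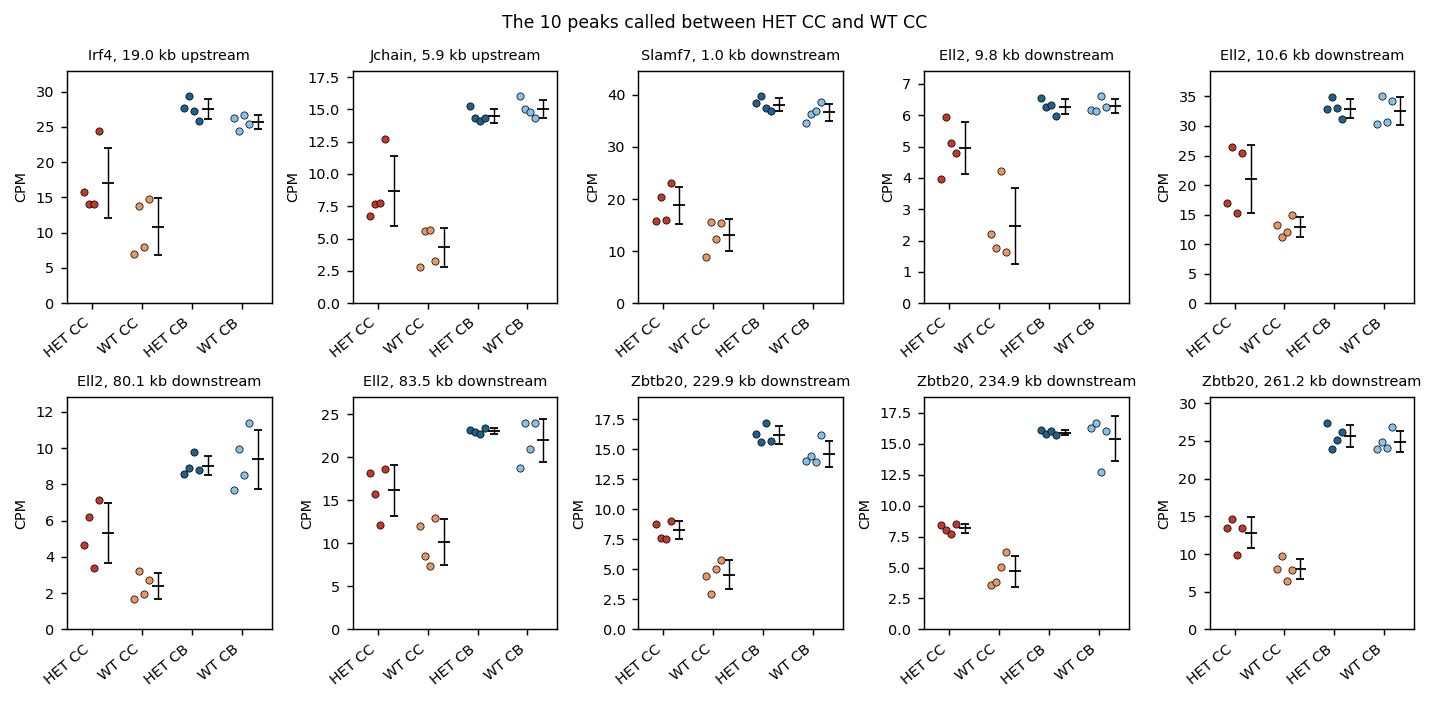
CPM of the 10 peaks called between HET CC and WT CC (vertical axes from 0) in the 16 libraries by group, titled by distance from the listed gene start; points are libraries and bars the mean and SD of 4. The peaks were picked by the difference between HET CC and WT CC. At every peak the HET CC mean lay above the WT CC mean and below both CB means, an order not counted over all peaks.

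These genotype calls rested on few libraries. A fit of the CC libraries alone and voom with quantile normalization each called 0 of the 136 peaks, DESeq2 called 20, and 35 had an unadjusted p below 0.05 in edgeR (25.7%, against 17.2% of all peaks). Without HET CC replicate 4 none of the 136 peaks was called, and without HET CC replicate 2 there were 2. Without WT CC replicate 3 there were 5, and without HET CC replicate 3 there were 16. The instability was not particular to the members. Over all peaks, 889 were higher and 805 lower in the main fit. Without HET CC replicate 4 there were 190 and 170, and without HET CC replicate 2 there were 185 and 153. The CC libraries alone gave 77 and 109, voom 0 and 0, and DESeq2 2154 and 2496. The same 2 HET CC libraries, replicates 2 and 4, had the highest sums of germinal center B cell markers within their group: 575, 717, 554 and 767 CPM in HET CC, against 440, 428, 467 and 518 in WT CC, 1035 to 1062 in HET CB and 1037 to 1073 in WT CB. Of the 6 germinal center markers, 5 were higher in HET CC than in WT CC, also without any 1 CC library, and 5 passed the interaction test. Of the 9 T cell markers, 4 were lower in HET CC, but 0 without HET CC replicate 2, HET CC replicate 4 or WT CC replicate 3. The HET CC libraries also were deeper than the WT CC libraries. The part of marker levels and depth in the member differences was not tested.

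Whether the genotype effect differed between CC and CB was tested as an interaction. None of the 136 peaks passed in edgeR, where 0.159% of all peaks did, and the lowest adjusted p was 0.0556. At an unadjusted p below 0.05 there were 29 (21.3%), against 11.4% of all peaks. DESeq2 called 7 member peaks, edgeR with total count scaling 2 and voom with quantile normalization 0. Over all peaks, DESeq2 called 834 higher and 518 lower, total count scaling 248 and 22, and voom 0 and 0. None of the summed loci passed, where 0.411% of all loci did, and 3 had an unadjusted p below 0.05. The Jchain locus had an interaction of log2 0.41 (SE 0.117, adjusted p = 0.105), which passed without HET CC replicate 1 (0.48, adjusted p = 0.0239) or HET CC replicate 3 (0.48, adjusted p = 0.0207).

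Other genes of the plasma cell and secretory program moved both ways. Of 37 listed genes 36 had a peak. In HET CC, 12 summed loci were higher than in HET CB and 15 lower, where 31.1% and 31.7% of all loci were. In WT CC, 14 were higher and 16 lower, where 31.6% and 31.7% of all loci were. The median log2 fold change was -0.04 in HET and 0.00 in WT, against 0.00 and -0.01 over all loci. The largest gains were at Ly6c2 (1.48 in HET, 1.82 in WT), a surface protein, and Tmem176b (1.08 in HET, 0.93 in WT). The largest falls were at Bhlha15 (-1.10 in HET, -1.13 in WT), which encodes the secretory cell factor MIST1, and Tent5c (-1.80 in HET, -0.98 in WT), whose product extends poly(A) tails of immunoglobulin transcripts. Between the genotypes, 0 passed in CB in edgeR, where 0.551% of all loci did, with 2 at an unadjusted p below 0.05. In CC, Sdc1, the syndecan of plasma cells (CD138), was lower in HET at log2 -0.28 (adjusted p = 0.0388), as was Glcci1 at -0.18 (adjusted p = 0.0194). They were the 2 called of the 36, where 6.66% of all loci were called. The Sdc1 call was lost under total count scaling (adjusted p = 0.0535) and without any of HET CC replicates 2, 3 and 4, WT CC replicates 1 and 4 or HET CB replicate 4 (adjusted p 0.0502 to 0.132). That of Glcci1 was lost without HET CC replicate 4 or WT CC replicate 1 or 2 (adjusted p 0.0573 to 0.0973).

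The 14 factors that oppose plasma cell fate or hold B cell identity all had peaks. In HET CC, 3 were higher than in HET CB and 8 lower, where 31.1% and 31.7% of all loci were. In WT CC, 1 was higher and 7 lower, where 31.6% and 31.7% of all loci were. Mitf rose most, by log2 1.28 in each genotype. Ebf1 (-0.42 in HET, -0.50 in WT), a factor of B cell identity, and Id3 (-0.47 in HET, -0.49 in WT) fell most. Between genotypes, edgeR called 0 of them in CC and 0 in CB, where 6.66% and 0.551% of all loci were called. At an unadjusted p below 0.05 there were 1 and 7, and the share of all loci at that threshold was not counted. Over the 16 libraries, the loci with the pattern most like Prdm1 were Srrm2, Bcl2 and Xpo1 (Pearson r of log2 CPM 0.989, 0.988 and 0.987), and those most like Jchain were Lnx2, Pan3 and Vps8 (0.993, 0.993 and 0.992). These r values describe 16 libraries that fall into CC and CB clusters and differ in depth, among 7536 loci compared.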

How the data were processed

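Omni-ATAC accessibility was analysed in 16 libraries, in 4 groups of 4 taken from the genotype labels and titles. The authors deposited raw counts per peak for 82188 peaks of 501 bp, common to the 16 libraries. FastQC, BWA, deepTools, R 4.2.1 and mm10 appear in the submitters' processing notes; the peak caller and counting tool are not given in the sources used here. CPM values were computed from the counts with scaling by trimmed mean of M-values (TMM).

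Peaks were assigned to the nearest protein-coding gene span of RefSeq (GRCm38.p6) within 50 kb. All peaks, and counts summed per gene, were tested with edgeR 4.0.16 in R 4.3.3: filterByExpr, which removed 0 peaks, a robust quasi-likelihood fit of the 16 libraries in their 4 groups, and p-values adjusted by Benjamini-Hochberg across every peak or every gene. A call is an adjusted p below 0.05; all adjusted p are from this test unless another tool is named. SE is a standard error worked back from the test, the absolute log2 fold change divided by the square root of its F statistic. The comparisons were CC against CB in each genotype, HET against WT in each cell type, and their interaction. The code was tested on simulated data.

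Alternatives were other scalings and filters, thinning to the smallest library, DESeq2 1.42.0, voom with quantile normalization (limma 3.58.1), a replicate block, fewer groups, a 20 kb limit and leaving out each library. Leaving out HET CC replicates 2 and 4 together was added after seeing the data. Members and lists were chosen with earlier results of these data known. Named with values were, per gene, the strongest peak, the peak nearest the start (or a gene end), the called peaks with the largest rise and fall of CC over CB in WT, and every peak called by genotype; Mzb1 and Cd93 are described by gene ends. Gene lists were counted whole, naming the 2 largest changes each way. Values of some listed genes are not reported here.

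The labels do not say that replicates came from separate animals, so p-values reflect only how these samples vary, possibly for technical reasons. Median counts per peak ran from 22 in the shallowest library to 347 in the deepest; PCR copies are not independent, so counts give counting error only. Promoter sequences came from the RefSeq table, which matched 7 of the 9 genes.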

Additional observations from a re-analysis of the deposited data

Results flagged for a closer look

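Among the named peaks and summed loci, 8 of the 172 sets of 4 libraries examined held 1 library far from the other 3; chance sets apart about 1 in 20. At the Irf4 peak 19.0 kb upstream of the start, HET CC replicate 4 stood at 24.4 CPM and the other HET CC libraries at 14.0 to 15.7. At the Xbp1 start site peak, HET CC replicate 3 stood at 51.3 CPM and the others at 38.3 to 40.2. At the Jchain peak 5.9 kb upstream, HET CB replicate 1 stood at 15.3 CPM and the others at 14.1 to 14.3. The Slamf7 peak 3.9 kb upstream held 22.5 CPM in WT CB replicate 2 and 19.8 to 20.1 in the others. The Mzb1 peak with the largest fall in WT held 14.9 CPM in HET CB replicate 3 and 16.1 to 16.2 in the others. At Cd93, the peak 13.1 kb away held 6.18 CPM in WT CC replicate 2 and 2.46 to 2.54 in the others, the strongest peak held 21.3 CPM in WT CC replicate 4 and 26.4 to 27.3 in the others, and the peak 48.9 kb away held 1.21 CPM in HET CB replicate 3 and 1.02 to 1.05 in the others. Without HET CC replicate 4, the Irf4 difference between HET CC and WT CC was log2 0.42 (adjusted p = 0.251), no longer a call.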

How the results depend on the processing

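The counts of member peaks called between CC and CB held within 1.5 times under every alternative run: 93 to 99 in HET and 96 to 102 in WT when 1 library was left out, and lowest with thinning in HET (75) and quantile normalization in WT (83). The replicate block gave 93 in HET and 98 in WT. The count between HET CC and WT CC, 10, was less stable. It was 5 after thinning, 0 with quantile normalization, 0 in a fit of the CC libraries alone, 20 with DESeq2 (18 higher, 2 lower), 0 without HET CC replicates 2 and 4 together, and 0 to 16 when 1 library was left out. The cause was not tested, except that thinning and the smaller fits remove counts or libraries. With the replicate block the member count was 8. Calls over all peaks moved in the same direction as the member count in these settings, with 698 higher and 589 lower under the block. Same-numbered libraries correlated weakly in their deviations from group means, at 0.029 to 0.074 for CC against CB and -0.12 to 0.009 for HET against WT. For CC against CB, 7 of 8 libraries correlated best with their own number in WT and 5 of 8 in HET. For HET against WT, 0 of 8 did in CB and 0 of 8 in CC. The labels do not say whether the numbers pair samples, and these values do not settle it. The count between HET CB and WT CB, 0, became 1 with quantile normalization. The interaction count, 0, became 2 with total count scaling, 7 with DESeq2 and 0 to 4 when 1 library was left out. Quantile normalization reversed 4 named values: the Ell2 start site peak (-0.17 in WT, adjusted p = 0.0229, and -0.09 in HET), the Irf4 peak 6.5 kb upstream (-0.04 in HET) and the Zbtb20 peak 27.7 kb before its listed start (-0.00 in WT). Of the 3521 values of named peaks and summed loci recomputed, 3373 stayed on the same side of the threshold (87 of them, none called, changed sign), 114 lost the call, 30 gained it and these 4 reversed. The median peak held 35 to 50 counts in HET CC and 22 to 24 in WT CC.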
